A study of Saccharomyces cerevisiae with 5 samples.

Results

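The genes described here encode the enzymes of lower glycolysis in budding yeast (Saccharomyces cerevisiae), the steps from glyceraldehyde 3-phosphate to pyruvate. They were chosen by name and matched by open reading frame (ORF): the glyceraldehyde 3-phosphate dehydrogenases TDH1 (YJL052W), TDH2 (YJR009C) and TDH3 (YGR192C), the phosphoglycerate kinase PGK1 (YCR012W), the phosphoglycerate mutase GPM1 (YKL152C), the enolases ENO1 (YGR254W) and ENO2 (YHR174W), and the pyruvate kinases CDC19 (YAL038W) and PYK2 (YOR347C). The choice was made with earlier results of these data known. All 9 genes were found, each with 1 spot, among the 6205 ORFs of the array, and 7 of them had values enough to be tested. Overnight cultures in YP with 2% glucose, a rich medium, were diluted into YP with 2% or with 20% glucose, and cells were taken 1 hour later, per the labels and the design text. Each of 5 two-colour arrays carried RNA of both media; no strain or genotype is named, and both groups share the overnight growth in 2% glucose. The RNA labelled 20% was in Cy3 on arrays 1, 3 and 4 and in Cy5 on arrays 2 and 5.

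Lower glycolysis conserves energy: glyceraldehyde 3-phosphate is oxidised by the TDH enzymes, PGK1 and pyruvate kinase each make ATP, and GPM1 and enolase rearrange the intermediates in between. Several steps have isozymes that differ in when they are used. In yeast TDH3 is the main dehydrogenase of growing cells and TDH1 is known from stationary and stressed cells, ENO2 is the enolase induced by glucose, and CDC19 is the main pyruvate kinase while PYK2 is repressed by glucose. The transcripts are among the most abundant in fermenting yeast and their promoters depend on the factors Gcr1 and Rap1.

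All values are log2 ratios of the signal under the 20% label to that under the 2% label, so that a positive value means more signal from the RNA labelled 20%. The direction was checked against scanner files for arrays 4 and 5, and the scale and direction of arrays 1 to 3 are not stated and were taken to be the same. Genes with a known response to high glucose and high osmolarity ran against the dye labels. The value was -2.54 ± 0.26 (SE of limma's fit over 5 arrays, adjusted p = 0.0294) for HXT1, a glucose transporter of cells in abundant sugar, and -2.33 ± 0.38 (adjusted p = 0.043) for GPP2 of glycerol synthesis, against 2.26 ± 0.15 (adjusted p = 0.00924) for HXT2, a transporter of cells short of sugar. GPD1, the osmostress-induced glycerol 3-phosphate dehydrogenase, was at -3.96 ± 0.97 (adjusted p = 0.0733). The direction rests on the dye labels alone, and if these are exchanged every sign below turns. To follow the labels, all deposited values were multiplied by -1. As deposited, HXT1, GPP2 and GPD1 were positive and HXT2 was negative, the signs of their known response. The arrays correlated positively with each other over all ORFs, at 0.951 between arrays 4 and 5, 0.861 between arrays 2 and 3, 0.597 and 0.618 for array 1 with arrays 2 and 3, and 0.256 to 0.374 between arrays 1 to 3 and arrays 4 and 5. The labels do not tell whether each array had its own pair of cultures or whether some repeat 1 pair of RNA samples with the dyes turned. The p-values therefore measure only the spread between arrays, which may be technical.

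Lower glycolysis genes had more signal under the 20% label almost throughout. Of their 39 array values 38 were above 0, and 8 of the 9 genes were above 0 on every array with a value. The exception was CDC19 on array 1, at -0.01. Over the 5 arrays the 7 genes tested had estimates between 0.37 (TDH1) and 0.64 (TDH3), with a median of 0.51 against 0.003 over all 5447 ORFs tested, and each lay above at least 87.3% of these ORFs. None passed the threshold of 0.05 in limma after Benjamini-Hochberg adjustment over all ORFs (adjusted p from 0.0539 to 0.113), where 3.69% of all ORFs did. At an unadjusted p under 0.05 all 7 passed, against 28.5% of all ORFs. Without the dye term 4 of 7 were called higher (TDH1, TDH3, PGK1 and PYK2, adjusted p from 0.0223 to 0.0408 in limma), against 8.50% of all ORFs. In the fit that adds a term for the set of arrays (1 to 3, or 4 and 5) all 7 were called higher (adjusted p from 0.00315 to 0.0153), against 16.4% of all ORFs. With arrays 4 and 5 averaged and counted as 1 sample, a choice made after the data were seen, 0 of 7 were called by limma (adjusted p from 0.132 to 0.25), where 0.0561% of all ORFs were, and 6 had an unadjusted p under 0.05, against 21.3%. Across all ORFs, 16.7% of those with 5 values were above 0 on every array.

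**Figure D1:**
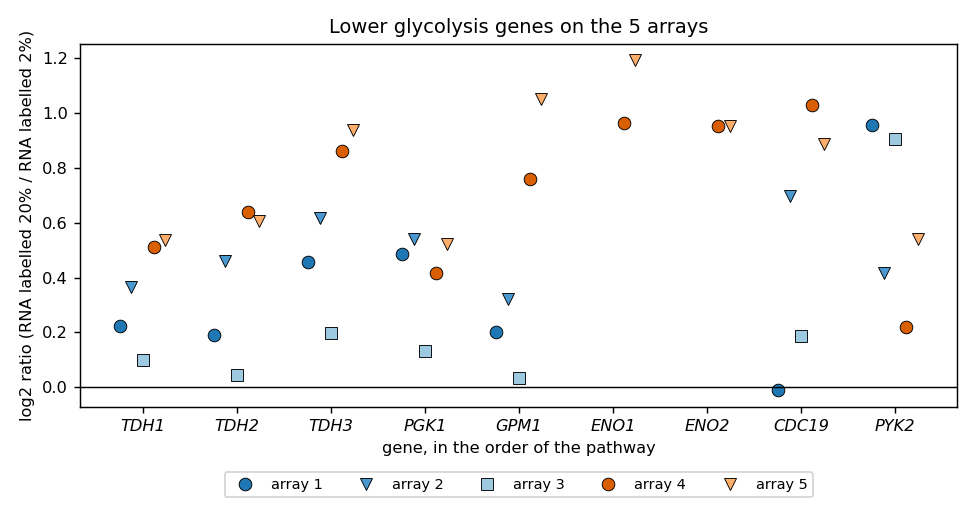
Log2 ratio of 20% over 2% glucose, by the dye labels (vertical axis) of each lower glycolysis gene on each array, as circles, triangles and a square coloured by set of arrays. All points but that of CDC19 on array 1 (-0.01) lie above 0, ENO1 and ENO2 have values on arrays 4 and 5 only, and PYK2 is high on arrays 1 and 3 (0.96 and 0.91), where the other genes reach at most 0.49 and 0.20.

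Among the 3 dehydrogenase genes TDH3 had the highest ratio on every array. TDH3 was at 0.46, 0.62, 0.20, 0.86 and 0.94 on arrays 1 to 5, which gave an estimate of 0.64 ± 0.12 (1.56-fold, adjusted p = 0.0539 in limma). TDH2 was at 0.19, 0.46, 0.05, 0.64 and 0.61 on the same arrays and was estimated at 0.41 ± 0.11 (1.33-fold, adjusted p = 0.0873 in limma). TDH1 was at 0.22, 0.37, 0.10, 0.51 and 0.54 and was estimated at 0.37 ± 0.09 (1.29-fold, adjusted p = 0.0799 in limma). All 3 genes were lowest on array 3 and had both values of arrays 4 and 5 above those of arrays 1 to 3. The 3 ORFs have the same length, 999 bases, and near-identical isozymes may share signal on such spots, so that a change in 1 of these transcripts could reach the spots of the others. No sequence of the spotted DNA was used here.

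The differences between these isozymes were small. TDH1 was below TDH3 on 5 of 5 arrays, by -0.27 ± 0.12 (mean and SD, n = 5), from -0.40 on array 5 to -0.10 on array 3. TDH2 was below TDH3 on 5 of 5 arrays as well, by -0.23 ± 0.08 (SD, n = 5). Each of these mean differences exceeded its spread between arrays. Both had an exact two-sided sign-flip permutation p of 0.063, the smallest that 5 arrays allow, and 0.156 after Benjamini-Hochberg adjustment over the 5 isozyme pairs compared. TDH1 and TDH2 differed by -0.04 ± 0.08 (SD, n = 5), less than the spread, with the sign negative on 3 arrays and positive on 2 (exact permutation p = 0.313, adjusted 0.521). In the order of the means TDH3 stood first, without passing the threshold, and TDH2 and TDH1 did not differ beyond their spread.

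PGK1, the kinase of the first ATP-forming step, varied little between the sets of arrays. It was at 0.49, 0.54, 0.13, 0.42 and 0.52 on arrays 1 to 5, an estimate of 0.44 ± 0.09 (1.35-fold, adjusted p = 0.0551 in limma). Array 3 stood below the other 4, which lay between 0.42 and 0.54. With only the 4693 ORFs that have all 5 values in the fit, PGK1 (adjusted p = 0.0491 in limma) and TDH3 (adjusted p = 0.0482) passed the threshold, where 3.52% of those ORFs were called higher.

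GPM1, the mutase that turns 3-phosphoglycerate into 2-phosphoglycerate, stepped up between the sets. It was at 0.20, 0.32 and 0.03 on arrays 1 to 3 and at 0.76 and 1.05 on arrays 4 and 5. The value of array 5 was deposited as -10.503, with its decimal point displaced, and was divided by 10 as described under the processing; the scanner's own ratio was 0.96. The estimate over all arrays was 0.51 ± 0.16 (1.42-fold, adjusted p = 0.113 in limma). The GPM1 spot was uneven on the arrays with scanner files, and brighter than 38.9% and 39.2% of all spots. Its intensity minus background was 1261 under the 20% label and 754 under the 2% label on array 4, and 779 and 327 on array 5. The SD of its pixels was 111% to 158% of the pixel median, where the median spot of the 2 arrays had 23.3% to 25.5%. All channels were still at least 7.41 times background. Whether the unevenness of the spot bears on its ratio was not tested.

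The enolases ENO1 and ENO2 have no value on arrays 1 to 3 in the deposited table and could not enter the 5-array fit. ENO1 was at 0.96 and 1.19 and ENO2 at 0.95 and 0.95 on arrays 4 and 5. The ENO1 value of array 5 was deposited as -11.907 and divided by 10 in the same way; the scanner's ratio there was 1.61. Within these 2 arrays the limma fit estimated ENO1 at 1.08 ± 0.08 (2.11-fold, adjusted p = 0.00152) and ENO2 at 0.95 ± 0.05 (1.93-fold, adjusted p = 0.000829). That fit has 1 residual degree of freedom per gene, leans on the spread shared over genes and called 27.9% of 5371 ORFs as higher. ENO1 exceeded ENO2 by 0.01 on array 4 and 0.24 on array 5. The mean of 0.13 ± 0.16 (SD, n = 2) was within the spread, and 2 arrays cannot give an exact p under 0.5. Of all 6205 ORFs, 262 (4.22%) likewise had no value on arrays 1 to 3 but values on both arrays 4 and 5. Spots of 361 ORFs exceeded an intensity of 10000 in both channels of array 4, and 46 of these (12.7%) had no value on arrays 1 to 3.

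Further homologs of these enzymes had few values. Of GPM2, GPM3, ERR1, ERR2 and ERR3 only GPM3, a homolog of the mutase, could be tested over the arrays, and it was at -0.21 ± 0.09 (adjusted p = 0.216 in limma), negative on all 4 arrays with a value. The enolase-related ORFs ERR1, ERR2 and ERR3 had 2 values each, and within arrays 4 and 5 they were at 0.85 ± 0.05, 0.39 ± 0.06 and 1.09 ± 0.05 (adjusted p = 0.00124, 0.00871 and 0.00074 in limma). They are 1314 bases long, as are ENO1 and ENO2. Whether their spots took up enolase transcripts was not tested.

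The pyruvate kinase genes ran in different patterns over the arrays. CDC19 was at -0.01, 0.70 and 0.19 on arrays 1 to 3 and at 1.03 and 0.89 on arrays 4 and 5, an estimate of 0.60 ± 0.17 (1.51-fold, adjusted p = 0.0918 in limma). Its value on array 4 was deposited as -10.274 and likewise divided by 10, where the scanner's ratio was 1.11. PYK2 was at 0.96, 0.41 and 0.91 on arrays 1 to 3 and at 0.22 and 0.54 on arrays 4 and 5, an estimate of 0.59 ± 0.13 (adjusted p = 0.0652 in limma). The 2 estimates were close, but PYK2 was the higher on arrays 1 and 3 (by 0.97 and 0.72) and CDC19 on arrays 2, 4 and 5 (by 0.28, 0.81 and 0.35). Their mean difference, CDC19 minus PYK2, was -0.05 ± 0.76 (SD, n = 5, exact permutation p = 0.938, adjusted 0.938), and its sign depends on which array is left out: it was 0.18 without array 1 and 0.12 without array 3. PYK2 had the lowest adjusted p of the group within arrays 1 to 3 (0.67 ± 0.14, adjusted p = 0.00622 in limma) and the lowest estimate within arrays 4 and 5 (0.38 ± 0.09, adjusted p = 0.0307). Without array 4 it passed over the remaining arrays as well (0.70 ± 0.09, adjusted p = 0.0477 in limma), where 1.23% of all ORFs were called higher; it was the 1 call of the group in the 5 fits that each left out 1 array.

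**Figure D2:**
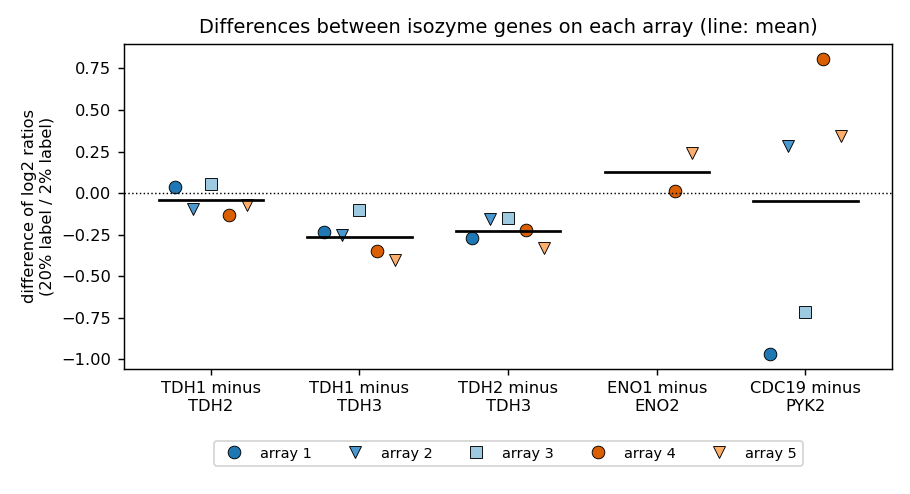
Difference of the log2 ratios of isozyme genes (vertical axis) on each array, with the mean as a line. The TDH1 and TDH2 differences from TDH3 are below 0 on all 5 arrays, and CDC19 minus PYK2 runs from -0.97 on array 1 to 0.81 on array 4.

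Most of the group had larger ratios on arrays 4 and 5, for which scanner files exist, than on arrays 1 to 3. In 5 of the 7 genes with 5 values (TDH1, TDH2, TDH3, GPM1 and CDC19) both arrays 4 and 5 lay above all of arrays 1 to 3, as they did for 30.2% of all ORFs with 5 values. Tested as a term in the limma fit, the difference of arrays 4 and 5 from arrays 1 to 3 passed for GPM1 only (0.68 ± 0.13, adjusted p = 0.0298), where 12.8% of all ORFs passed. Its means were 0.19 ± 0.14 (SD, n = 3) and 0.91 ± 0.21 (SD, n = 2). This call ended without array 2, without array 4 and without array 5, where the difference was 0.64, 0.73 and 0.64. With the dye term in the fit, each of these contrasts rests on 1 array of the set 4 and 5. The fits without array 2 and without array 5 give the same contrast, array 4 against arrays 1 and 3. CDC19 (0.62 ± 0.20, adjusted p = 0.104), TDH3 (0.44 ± 0.15, adjusted p = 0.108), TDH2 (0.36 ± 0.15, adjusted p = 0.168) and TDH1 (0.27 ± 0.13, adjusted p = 0.225) differed in the same direction without passing. For PGK1 the difference was 0.05 ± 0.16 (adjusted p = 0.848) and for PYK2 it was -0.35 ± 0.21 (adjusted p = 0.31). Without array 1, 5 of the 7 genes passed, those 4 and GPM1, as did 46.8% of the 4751 ORFs tested there.

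Fitted alone, arrays 1 to 3 called TDH3 (0.47 ± 0.14, adjusted p = 0.0363 in limma) and PYK2 as higher, 2 of 7, against 11.5% of all ORFs. Arrays 4 and 5 alone called all 9, against 27.9%. Their median of 0.90 is over 9 genes and includes ENO1 and ENO2, which have no value on arrays 1 to 3. The fit of arrays 1 to 3 has a dye term and that of arrays 4 and 5 has none, so the 2 counts come from fits of different form. With the dye term, array 2 adds nothing to the error of the fit of arrays 1 to 3. Its p-values rest on the spread between arrays 1 and 3 and on that shared over genes. Within arrays 1 to 3, array 2 was the highest for 6 of the 7 genes, against 28.5% of all ORFs with 5 values, and the lowest for PYK2. Array 3 was the lowest of the 5 arrays for 5 of the 7 (TDH1, TDH2, TDH3, PGK1 and GPM1), against 22.0%. Array 2 is also the array of this set with the 20% label in Cy5. The dye term of the 5-array fit was between -0.11 (PYK2) and 0.19 (CDC19) for the 7 genes and passed for 0 of them in limma. At an unadjusted p under 0.05 it also passed for 0 of 7, and for 0.330% of all ORFs. That fit has no term for the set of arrays. The difference between the sets therefore adds to its error, and a dye effect may fail to pass.

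**Figure D3:**
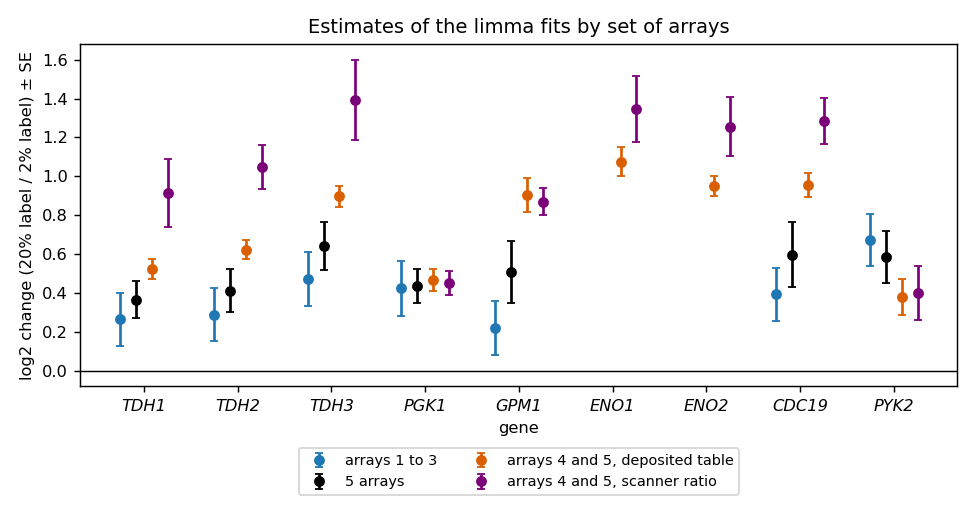
Log2 change of 20% over 2% glucose, by the dye labels ± SE in limma fits of arrays 1 to 3, all 5 arrays, and arrays 4 and 5 with the deposited table or with the scanner's ratio. TDH1, TDH2, TDH3, ENO1, ENO2 and CDC19 are higher with the scanner's ratio than with the table, whereas PGK1, GPM1 and PYK2 are nearly the same.

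How large the change was on arrays 4 and 5 depended on the normalization for the genes with bright spots. The spots of TDH1, TDH2, TDH3, ENO1, ENO2 and CDC19 were brighter than 97.5% to 99.4% of all spots, those of PGK1 than 82.2% and 90.5%, and those of GPM1 and PYK2 than 38.9% to 69.4%. Spot brightness is given here as a property of the spot and not as a transcript level. TDH3 had an intensity minus background of 45569 under the 20% label and 22424 under the 2% label on array 4, and of 34708 and 8587 on array 5. No spot of the group was flagged, and none was saturated.

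On array 5 the scanner's own ratio, which is shifted by 1 constant for the whole array, was larger than the deposited one for the bright spots. For TDH3 it was 1.72 against 0.94 in the table, for CDC19 1.46 against 0.89, for TDH1 1.19 against 0.54 and for ENO2 1.49 against 0.95. Over the 6 bright genes the excess was 0.42 to 0.78 on array 5 and 0.07 to 0.24 on array 4. For PGK1, GPM1 and PYK2 the 2 ratios differed by at most 0.09 on either array. The excess was not particular to glycolysis: the brightest 3% of all spots had a median excess of 0.48 on array 5 and 0.07 on array 4, where all spots had -0.07 and -0.05. A loess curve fitted within each of the 16 blocks of the array gave values that correlated with the table at 0.9995 on array 4 and 0.9989 on array 5, with a median absolute difference of 0.00803 and 0.0116. A loess curve over the whole array reached 0.9926 and 0.9927, and the constant shift 0.9908 and 0.9637. A curve of this kind sets the typical ratio of bright spots in a block close to 0.

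**Figure D4:**
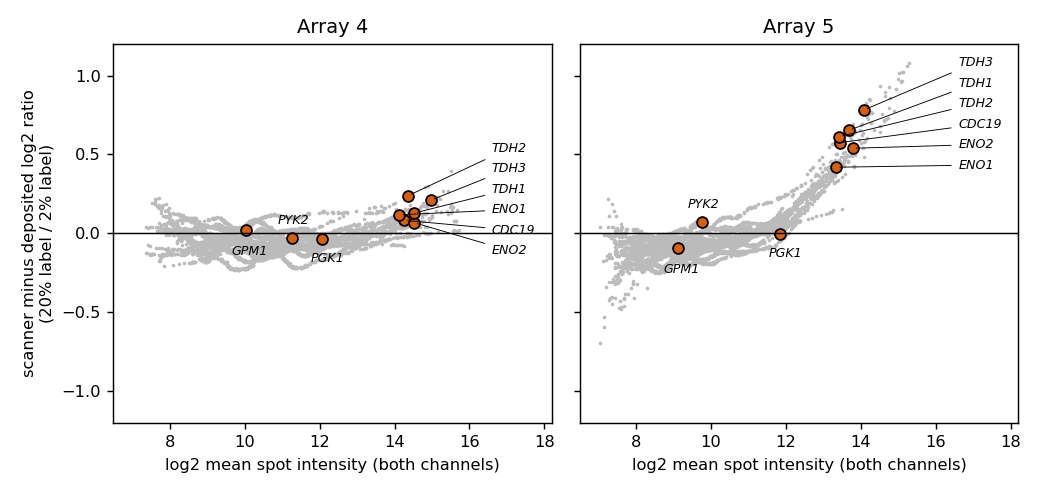
Scanner's ratio minus deposited ratio, both log2 of the 20% over the 2% label (vertical axis), against the mean log2 intensity of the spot in both channels, for all spots (grey) and the lower glycolysis genes (orange) on arrays 4 and 5. On array 5 the difference rises with brightness, to 0.78 for TDH3, whereas GPM1, PYK2 and PGK1 lie near 0.

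With the scanner's ratio in place of the table within arrays 4 and 5, a setting added after the data were seen, TDH3 was at 1.40 ± 0.21 (2.63-fold, adjusted p = 0.0352 in limma), ENO1 at 1.35 ± 0.17 (2.54-fold, adjusted p = 0.0297), CDC19 at 1.29 ± 0.12 (2.44-fold, adjusted p = 0.0231) and ENO2 at 1.26 ± 0.15 (2.39-fold, adjusted p = 0.0285). The table gave 1.86-fold for TDH3 and 1.94-fold for CDC19 within these arrays. TDH2 (1.05 ± 0.11) and TDH1 (0.92 ± 0.18, adjusted p = 0.0492) stood against 0.62 and 0.52 in the table. PYK2 was at 0.40 ± 0.14 and did not pass (adjusted p = 0.119), so that 8 of 9 were called higher, against 17.8% of all ORFs. With normexp background correction and a loess curve per array instead, 9 of 9 were called, against 27.8%, and TDH3 was at 1.03 ± 0.06 (2.04-fold). With the scanner's ratio the difference between the sets of arrays passed for TDH1, TDH2, TDH3 and CDC19 in addition to GPM1 (adjusted p from 0.0178 to 0.0436 for those 4), against 14.9% of all ORFs. In that fit arrays 1 to 3 kept the deposited normalization, so the excess of bright spots on array 5 enters the difference directly. The 5-array estimates were then 0.87 ± 0.20 for TDH3 and 0.75 ± 0.20 for CDC19 without passing (adjusted p = 0.0773 and 0.0943 in limma).

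The neighbouring parts of the pathway had mostly estimates of the same sign. Of the 8 upper glycolysis genes 6 could be tested; all 6 were positive, with a median of 0.45, and 1 was called higher, the hexokinase HXK1 (1.16 ± 0.19, adjusted p = 0.043). The glucokinase GLK1 (0.50 ± 0.14, adjusted p = 0.0909), PFK1 of phosphofructokinase (0.39 ± 0.12, adjusted p = 0.105) and the hexokinase HXK2 (0.60 ± 0.25, adjusted p = 0.187) did not pass. Of the 8 pyruvate decarboxylase and alcohol dehydrogenase genes 7 were positive (ADH4 was at -0.33 ± 0.11, adjusted p = 0.122), with a median of 0.67, and 2 were called higher in limma, ADH2 (0.71 ± 0.07, adjusted p = 0.0294) and ADH1 (0.63 ± 0.08, adjusted p = 0.0323). ADH5 (0.72 ± 0.18) and ADH3 (0.47 ± 0.11) had an adjusted p of 0.0724 and 0.0725. These shares stand against 2.24% of all ORFs called higher in the same fit.

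The enzymes that follow pyruvate into the mitochondria had a larger median estimate, a difference that was not tested. All 12 TCA cycle genes tested were positive, with a median of 1.13, and 4 were called higher: the citrate synthase CIT1 (1.96 ± 0.27, adjusted p = 0.0422), KGD1 (0.62 ± 0.09, adjusted p = 0.0422) and KGD2 (0.54 ± 0.10, adjusted p = 0.0452) of the 2-oxoglutarate dehydrogenase, and the fumarase FUM1 (0.94 ± 0.14, adjusted p = 0.0422). The share of all ORFs called higher in this fit was 2.24%. Among the 5 tested genes of gluconeogenesis and the pyruvate branch, 1 was called higher, the pyruvate carboxylase PYC1 (1.30 ± 0.21, adjusted p = 0.043), while PCK1 (-0.26 ± 0.24), MDH2 (0.40 ± 0.18) and MAE1 (0.12 ± 0.21) did not pass. Genes of the factors that act on glycolytic promoters did not share the positive sign: 6 of 7 were negative, with a median of -0.23 and 0 called in limma, and 3 had an unadjusted p under 0.05, where 28.5% of all ORFs did. REB1 was at -0.39 ± 0.12 (adjusted p = 0.107), GCR2 at -0.26 ± 0.08 (adjusted p = 0.108), ABF1 at -0.29 ± 0.11 (adjusted p = 0.151) and GCR1 at 0.16 ± 0.09 (adjusted p = 0.304).

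Markers of stationary phase cells, the state that an overnight culture nears, moved with the sets of arrays as well. Their median was between -0.26 and -0.01 on arrays 1 to 3 and at 0.59 and 1.08 on arrays 4 and 5, over 6 to 9 of the 10 markers with a value on an array. Of the 6 tested over the 5 arrays 1 was called, against 3.69% of all ORFs: FMP45 (-0.84 ± 0.10, adjusted p = 0.0422 in limma), whereas HSP26 (0.84 ± 0.31), SNZ1 (0.73 ± 0.30) and SNO1 (0.90 ± 0.49) did not pass. The difference between the sets passed for 5 of the 6, all higher on arrays 4 and 5, as for 6.61% of all ORFs. Whether these markers reflect cells left from the overnight culture or a response to the medium was not tested. Nor was their part in the ratios of the lower glycolysis genes.

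**Figure D5:**
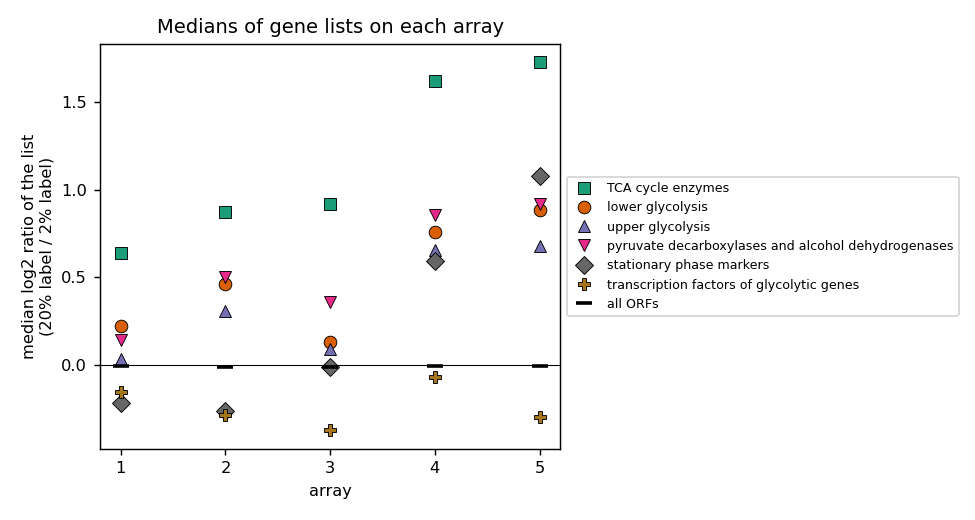
Median log2 ratio (20% over 2% label, vertical axis) of lower glycolysis, neighbouring parts of metabolism, glycolytic transcription factors, stationary phase markers and all ORFs on each array. The lower glycolysis median is 0.13 to 0.46 on arrays 1 to 3, over 7 genes, and that of all ORFs stays near 0. On arrays 4 and 5 it is 0.76 and 0.89 over 9 genes, with ENO1 and ENO2 added. For the same 7 genes it is 0.64 and 0.61 there.

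The genes nearest to the group in their profile were found by the Euclidean distance of the 5 log2 ratios over the 4693 ORFs with all values. Nearest to the median profile of the 7 genes (0.22, 0.46, 0.13, 0.64 and 0.61 on arrays 1 to 5) were TDH2 itself (distance 0.0922), ILV1 of isoleucine synthesis (0.173), ARO2 of aromatic amino acid synthesis (0.174), TDH1 (0.176) and SKP2 (0.193), against a median distance of 1.23 over all ORFs. That profile is made from the members themselves, so members lie near it in part by construction. Its value is that of TDH2 on arrays 2, 4 and 5 and that of TDH1 on array 1. For CDC19 the nearest were BAT1, the mitochondrial branched-chain aminotransferase (distance 0.193), and COX9 of cytochrome oxidase (0.277). For PYK2 they were BAT2, the cytosolic branched-chain aminotransferase (0.313), and the glycogen synthase GSY2 (0.345). For TDH3 they were the mitochondrial chaperone SSC1 (0.261) and IRC7 (0.321), and for TDH2 they were ARO2 (0.182) and TDH1 (0.184). TDH1 lay nearest to AMN1 (0.101) and TOM70 of mitochondrial protein import (0.152), PGK1 to the peroxiredoxin TSA2 (0.217) and MRPL38 of the mitochondrial ribosome (0.238), and GPM1 to the mitochondrial carriers OAC1 (0.248) and YHM2 (0.26). These distances describe the 5 arrays only and come with no test.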

How the data were processed

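The deposited table holds log2 ratios of 5 arrays, normalized by the authors, with tools not given in the sources used here; the submitters' scale and direction for arrays 1 to 3 were taken to be those of arrays 4 and 5. Per the file headers, the deposited scanner files of arrays 4 and 5 hold spot and background intensity at 635 nm (Cy5) and 532 nm (Cy3), log2 ratios and a flag (a quality score). On arrays 4 and 5, 258 and 262 values of 10 or more in size were divided by 10, as their decimal point was displaced. On these arrays 0 values between 1 and 10 in size have 4 decimals, the format of every such value on arrays 1 to 3, and after the repair the table correlated with the scanner's ratio at -0.991 and -0.964 (20% over 2% by the dye labels). The arrays' medians lay between 0.0021 and 0.0105, and all values were multiplied by -1. Members GPM1, ENO1 (array 5) and CDC19 (array 4) held 1 repaired value each.

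Of 6298 rows, 6218 are spots of 6205 ORFs and 80 are controls; 13 ORFs had 2 spots, which were averaged. The arrays hold 5373 to 5804 values. Above background, the median spot had 1326 in Cy5 and 1270 in Cy3 for array 4, and 696 and 593 for array 5. The number of arrays limits the precision. Names came from a RefSeq gene table (R64), which matched 5705 ORFs.

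Ratios were fitted with limma 3.58.1 in R 4.3.3 (lmFit, eBayes) with a dye term (none in fits of arrays 4 and 5 alone), for 5447 ORFs with at least 4 values, two-sided, adjusted by Benjamini-Hochberg over all ORFs, threshold 0.05. The script was tested on simulated data. Isozyme differences were tested by exact sign flips over arrays. Normexp used an offset of 50. Named genes are the members, the up to 4 genes of smallest p in each list (5 for the homologs), 4 genes that check the labels, and nearest profiles. The members and lists were chosen with earlier results of these data known. No position is given, since the arrays name no genome build. Sequences of promoters, proteins and spotted DNA were not analysed here.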

Additional observations from a re-analysis of the deposited data

Results flagged for a closer look

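For GPM1 arrays 4 and 5 exceeded arrays 1 to 3 by 0.68 on the log2 scale (adjusted p = 0.0298 in limma with a term for array set). It was 1 of 7 genes to pass, close to the 12.8% of all ORFs that passed. The call ended without array 2, 4 or 5, each a contrast that rests on 1 array of the set 4 and 5. Without array 1, 5 of the 7 genes passed, against 46.8% of all ORFs tested there. With the scanner's ratio for arrays 4 and 5, 5 of the 7 passed, against 14.9%. The GPM1 spot was uneven on arrays 4 and 5, and whether that contributes was not tested. No array stood apart from the other 4 for any gene with 5 values by Dixon's test (critical value 0.71); PGK1 came nearest, with array 3 low and a gap of 0.694 of the range.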

How the results depend on the processing

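Of the planned and added settings, 13 left the number of lower glycolysis genes called at 0, and 8 raised it, to between 1 and 9. The 13 include the exchange of the dye labels, which cannot change this count. The median stayed between 0.39 and 0.62 in every fit other than those of arrays 4 and 5 alone and that with the dye labels exchanged. The fits of arrays 4 and 5 alone hold 9 genes, with ENO1 and ENO2 added, where the others hold 7. Over the same 7 genes the medians of the ratios on arrays 4 and 5 were 0.64 and 0.61. The fit over all ORFs called 201. It called 919 without the dye term (4 members: TDH1, TDH3, PGK1 and PYK2), 1618 with a term for array set (7 members), 1 with arrays 4 and 5 as deposited, and 0 with robust eBayes and a trend, where 1612 had an unadjusted p under 0.05. With ORFs that have all 5 values 2 members were called. Leaving out 1 array gave 0 (without array 3, 1090 at an unadjusted p under 0.05) to 103 ORFs (without array 4), 0 to 1 members, and a median of 0.42 to 0.62. Arrays 1 to 3 alone called 901 ORFs and 2 members. Arrays 4 and 5 alone called 2924 and 9 members (median 0.90), 2137 and 8 with the scanner's ratio (median 1.05), and 2989 and 9 with normexp and loess (median 0.94). Arrays 4 and 5 counted as 1 sample gave 3 ORFs.

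With the dye labels exchanged the median was -0.51, and TDH1, TDH2, TDH3, PGK1, GPM1, CDC19 and PYK2 were at -0.37, -0.41, -0.64, -0.44, -0.51, -0.60 and -0.59. The difference between the sets passed for 696 ORFs and 1 member, for 1183 without the dye term, for 5 members with the scanner's ratio, and for 96 to 2225 ORFs and 0 to 5 members without 1 array. For PGK1 that difference turned to -0.045 without array 3 and -0.019 without array 4, and for PYK2 it ran from -0.712 without array 2 or array 5 to 0.13 without array 4. The isozyme difference CDC19 minus PYK2 was 1.80, and ENO1 minus ENO2 5.48, with arrays 4 and 5 as deposited, where the slipped decimal point enters. Leaving out 1 array gave -0.26 to 0.18 for the former and 0.01 to 0.24 for the latter, -0.31 to -0.23 for TDH1 minus TDH3, -0.24 to -0.20 for TDH2 minus TDH3 and -0.06 to -0.02 for TDH1 minus TDH2. Apart from the slipped decimal point in the as-deposited values, the cause of these changes was not tested. Each value is a ratio within 1 array, so the tests are already paired by array. The set of arrays was fitted as a further term, as given above, and the labels name no other replicate block.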
